A study of Homo sapiens with 90 samples.

Results

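N87 is a human gastric cancer line that carries an amplified ERBB2 gene, and its transcriptome was compared between cells given lapatinib with THZ1 and cells given lapatinib without it. Both groups received lapatinib at 100 nM for 48 h, and the combination group also received THZ1 at 25 nM for the same time. Each group held 3 libraries, so that the comparison rests on 6 of the 90 libraries of the study and covers every gene in the count table. The study treated 6 tumor cell lines with a targeted drug, with THZ1, with both or with 0.1% DMSO, and asked whether blocking transcription limits the response to the targeted drug. For N87 the other arms were DMSO for 48 h, THZ1 at 25 nM for 48 h and lapatinib at 100 nM for 7 days, again with 3 libraries each. The labels do not say that the libraries of an arm came from separate cultures, so p-values measure the spread between these libraries, which may be technical. N87 stands for a single cell line without stroma or immune cells.

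Lapatinib is a reversible inhibitor of the receptor kinases EGFR and ERBB2. THZ1 binds CDK7 covalently and also acts on CDK12 and CDK13, kinases that phosphorylate the tail of RNA polymerase II and so act at the start and during the elongation of transcripts. Transcripts that decay quickly are the first to fall when transcription is blocked. Interferon-stimulated genes, by contrast, depend on a complex that includes STAT2 and IRF9 and binds a short element in their promoters.

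Expected counts, the estimated reads per gene in the deposited table, summed to 9.50 to 10.10 M in the lapatinib libraries and to 9.11 to 10.27 M in the combination libraries. Values below are CPM, the counts of a gene brought to 1 common library total, with library totals adjusted by TMM, and a gene was called when the Benjamini-Hochberg adjusted p of edgeR's quasi-likelihood test was under 0.05. Fold changes are log2 values with their standard error (SE). Each of the 15 N87 libraries was nearest in correlation to a library of its own arm. Of 15370 genes tested, 8565 (55.7%) were called, 4146 (27%) higher and 4419 (28.8%) lower with THZ1. Of these, 518 were called and at least 2-fold higher (3.37% of genes tested) and 1036 were called and at least 2-fold lower (6.74%), and the median change over all genes was 0.0006. The lapatinib and combination libraries did not overlap in 9527 genes (62%), so separate groups were common. The labels name no added RNA standard, so each value is relative to the other transcripts of its library, and a change in total RNA per cell would not show.

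The labelled tissue was checked against marker genes. All 10 epithelial markers were tested, and their CPM summed to 20114 to 21225 with lapatinib and to 15791 to 16501 with the combination. Only 6 of the 15 gastric and intestinal markers passed the filter on low counts, with sums of 176 to 196 and 119 to 139, so that most markers of differentiated stomach were at or near the detection limit. The 7 urothelial markers summed higher than these, at 1135 to 1205 with lapatinib and 575 to 639 with the combination, most of it from UPK3B. Melanocyte markers summed to 46.3 to 63.0 and 49.1 to 53.1 with TYR at 0. Lung markers summed to 19.8 to 22.5 and 16.6 to 17.5 with NKX2-1 at 0. Blood cell markers summed to 22.2 to 26.4 and 13.6 to 15.3 with HBB at 0, and fibroblast and endothelial markers to 21.7 to 23.9 and 26.4 to 27.6. Over the 15 N87 libraries 3 of 8 melanocyte, 2 of 8 lung and 2 of 8 blood cell markers averaged above 1 CPM. PMEL, a melanocyte marker, had 169 counts in the lapatinib libraries and 228 in the combination libraries. CD68, a blood cell marker, had 449 and 201. The part of these markers in the results below was not tested.

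Interferon-stimulated genes had the lowest median change of the 39 gene lists examined. These genes encode antiviral effectors, sensors and the signalling proteins that drive the list itself. All 36 listed genes were tested and 36 were called lower with THZ1, against 28.8% of all genes, with a median log2 change of -1.69 against 0.0006 over all genes. The promoters of 3 genes are shown because they carry the letters of the interferon-stimulated response element (GAAA, any 2 bases, GAAA), here searched on both strands in the 250 bases before the start (RefSeq table, GRCh38.p14). Capitals mark the matches. IFI44L lies on the plus strand and its window is chr1:78620198-78620447, with matches that begin 164 and 73 bases before the start. IFIT3 was picked for its 2 matches after its value was seen, and its window is chr10:89327747-89327996 on the plus strand. The window of HLA-F, a non-classical class I gene of the antigen presentation list below, is chr6:29723184-29723433 on the plus strand and holds 1 match.
IFI44L: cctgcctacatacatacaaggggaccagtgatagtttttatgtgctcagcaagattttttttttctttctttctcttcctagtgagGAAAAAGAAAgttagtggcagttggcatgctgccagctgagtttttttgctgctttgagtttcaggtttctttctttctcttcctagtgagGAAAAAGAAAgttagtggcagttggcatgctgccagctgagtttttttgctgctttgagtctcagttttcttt
IFIT3: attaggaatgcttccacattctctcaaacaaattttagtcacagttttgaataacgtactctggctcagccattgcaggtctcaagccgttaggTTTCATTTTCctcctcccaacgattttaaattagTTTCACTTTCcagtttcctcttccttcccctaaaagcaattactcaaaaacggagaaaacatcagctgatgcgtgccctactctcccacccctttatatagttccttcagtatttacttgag
HLA-F: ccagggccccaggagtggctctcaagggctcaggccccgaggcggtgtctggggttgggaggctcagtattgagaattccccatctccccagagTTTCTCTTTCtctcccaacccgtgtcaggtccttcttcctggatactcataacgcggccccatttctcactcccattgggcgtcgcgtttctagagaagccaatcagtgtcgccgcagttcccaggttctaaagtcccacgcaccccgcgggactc
Of the 36 interferon-stimulated genes 29 had a promoter in the table, and 17 of those (58.6%) held a match. The share was 2.27% of the 11049 tested genes with a promoter and 3.05% of all 27305 promoters. The median log2 change was -1.67 over the 17 genes with a match and -1.56 over the 12 without one. XAF1 and CMPK2, both among the largest changes, held no match in the window searched, and MX2 is not in the table. Only a single start per gene was searched. A match is a description of letters and not a site of binding.

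IFI44L, an interferon-induced protein that dampens antiviral signalling, stood at 23.5, 24.8 and 30.1 CPM in the lapatinib libraries and at 0.376, 0.636 and 0.31 CPM in the combination libraries. Its groups lay far apart, although the combination values rest on 13 counts in all against 782. The log2 change was -5.86 ± 0.29 SE (adjusted p = 1.4e-12), the largest fall among genes that met the naming rule. XAF1, a pro-apoptotic partner of XIAP, stood at 23.4, 26.8 and 30.1 CPM with lapatinib and at 2.45, 1.91 and 2.07 with the combination (-3.63 ± 0.17 SE, adjusted p = 8e-13). MX2, a dynamin-like antiviral GTPase, went from 65.9, 67.5 and 79.2 CPM to 6.77, 7.73 and 5.28 (-3.43 ± 0.14 SE, adjusted p = 7.5e-14). CMPK2, a mitochondrial nucleotide kinase, went from 7.48, 9.45 and 11.6 CPM to 0.94, 0.741 and 1.14 (-3.32 ± 0.26 SE, adjusted p = 1.9e-09). The groups did not overlap in these 4 genes, which the naming rule required.

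The change was not even across the list. STAT2, IRF9, IFIT3 and SAMD9 are named here after their values were seen. IFIT3, a member of an antiviral RNA-binding complex, whose promoter is printed above, stood at 81.3, 67 and 77 CPM with lapatinib and at 12, 11.5 and 11.7 with the combination (-2.67 ± 0.10 SE, adjusted p = 1.9e-14). IRF9, the DNA-binding subunit of the interferon-activated complex, went from 45.5, 47 and 50 CPM to 15.6, 14.1 and 14 (-1.70 ± 0.09 SE, adjusted p = 2.8e-12). STAT2, a signalling subunit of that complex, changed little. It stood at 121, 121 and 132 CPM against 111, 109 and 115, without overlap (-0.15 ± 0.05 SE, adjusted p = 0.011). SAMD9, an antiviral restriction factor, stood at 589, 598 and 664 CPM against 565, 563 and 569, the smallest change of the list (-0.13 ± 0.05 SE, adjusted p = 0.04).

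**Figure D1:**
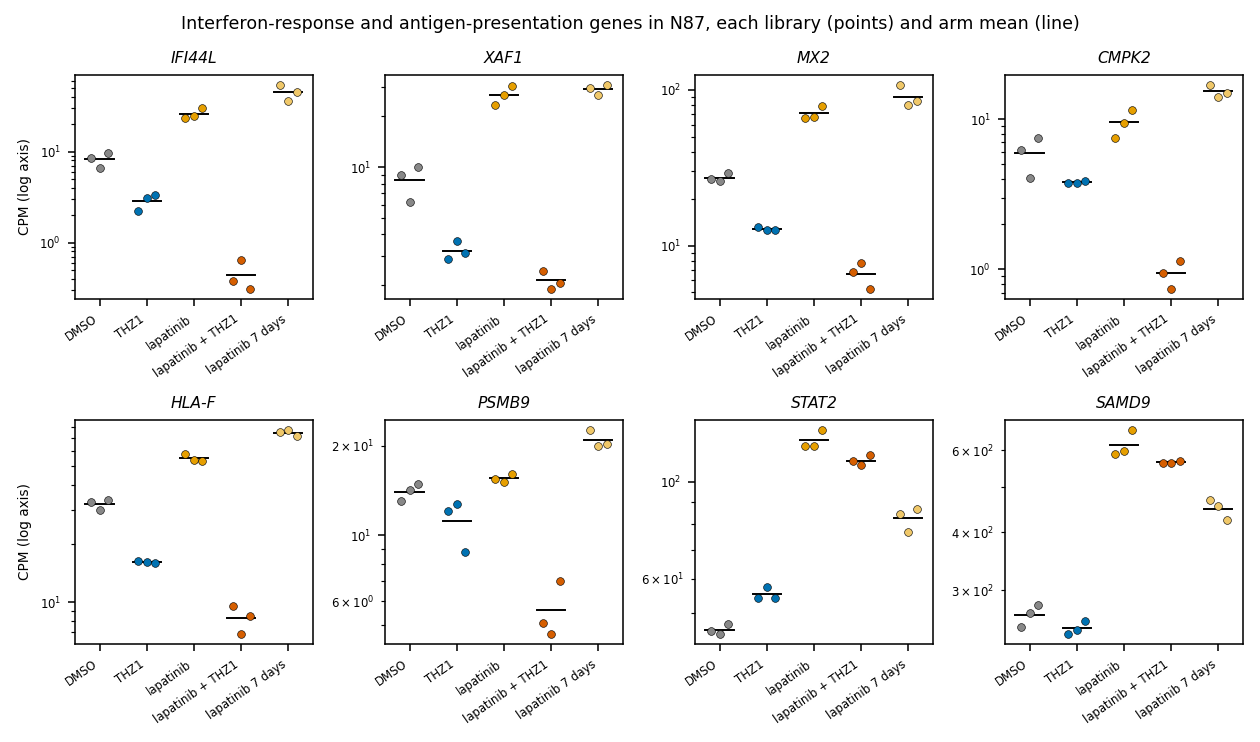
CPM on a log axis for 8 interferon-response and antigen-presentation genes in the 5 arms of N87; points are the 3 libraries of an arm and the line is their mean. IFI44L, XAF1, MX2, CMPK2, HLA-F and PSMB9 are lowest or among the lowest in the combination arm, while STAT2 and SAMD9 remain near their lapatinib level.

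Against DMSO, lapatinib without THZ1 had the opposite direction in this list, in a comparison that called 70.9% of all genes. Of the 36 genes 29 were called higher with 48 h of lapatinib than with DMSO (35.5% of all genes were) and 3 lower, with a median log2 change of 0.50. That comparison shares its lapatinib libraries with the one above, so the values are set side by side only. With the combination 32 of the 36 genes were called lower than with DMSO (38.4% of all genes were, and 76.9% were called in either direction) and 4 higher (38.5%), with a median of -1.23, so that most of the list ended below its level in cells that never received lapatinib.

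Genes for antigen presentation by HLA class I and class II fell as well. Of 24 listed genes 19 were tested, and 16 were called lower and 0 higher (28.8% and 27% of all genes were). The median log2 change was -0.84. NLRC5 and CIITA, the transactivators of class I and class II genes, were both at -0.06 and were not called (adjusted p = 0.43 and 0.93), nor was HLA-DMA at -0.25. HLA-F stood at 58.1, 53.8 and 53.5 CPM with lapatinib and at 9.59, 6.88 and 8.49 with the combination (-2.72 ± 0.09 SE, adjusted p = 3.4e-15). PSMB9, a subunit of the immunoproteasome, went from 15.5, 15.1 and 16.1 CPM to 5.08, 4.66 and 7.04 (-1.48 ± 0.15 SE, adjusted p = 4.6e-08). The groups did not overlap in either gene. Class I genes with far more reads changed less than HLA-F, here named after their values were seen: HLA-B fell by 1.11, and the light chain B2M fell by 0.51 on the log2 scale. CD74 and HLA-DRA of the class II pathway were called lower from few reads, with at most 2.21 CPM in any of these libraries. HLA genes have near-identical copies, and how reads were split between them is uncertain. Of the 14 antigen-presentation genes with a promoter in the table, 5 (35.7%) held the interferon letters.

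Replication and cell division genes, already reduced by lapatinib, fell again. Of the 36 genes of DNA replication, which load the helicase, make deoxynucleotides and copy DNA, 31 were called lower and 0 higher, with a median log2 change of -0.90. Of the 36 mitotic genes 31 were called lower and 1 higher, with a median of -0.97. The shares over all genes were 28.8% lower and 27% higher. With 48 h of lapatinib against DMSO all 36 of each list were called lower (35.4% of all genes were), with medians of -2.06 and -2.03. That comparison shares the lapatinib libraries with this one. The promoters of 3 genes are shown for the E2F letters TTTCCCGC or TTTGGCGC, searched on both strands and in capitals below. CDT1 and TYMS, among the 4 replication genes with the largest changes, have the windows chr16:88803539-88803788 and chr18:657403-657652 on the plus strand. E2F1, the activator whose family binds such letters, has the window chr20:33686386-33686635 on the minus strand.
CDT1: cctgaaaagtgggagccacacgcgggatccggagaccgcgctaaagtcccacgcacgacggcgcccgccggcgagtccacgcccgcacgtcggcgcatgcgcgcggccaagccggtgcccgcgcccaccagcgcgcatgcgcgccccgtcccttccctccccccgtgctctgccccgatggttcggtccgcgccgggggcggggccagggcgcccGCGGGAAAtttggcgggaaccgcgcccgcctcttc
TYMS: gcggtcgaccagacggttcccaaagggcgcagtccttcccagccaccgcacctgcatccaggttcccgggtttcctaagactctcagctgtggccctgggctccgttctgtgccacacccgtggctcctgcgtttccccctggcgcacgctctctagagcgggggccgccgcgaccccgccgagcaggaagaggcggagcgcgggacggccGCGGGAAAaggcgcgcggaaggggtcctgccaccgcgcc
E2F1: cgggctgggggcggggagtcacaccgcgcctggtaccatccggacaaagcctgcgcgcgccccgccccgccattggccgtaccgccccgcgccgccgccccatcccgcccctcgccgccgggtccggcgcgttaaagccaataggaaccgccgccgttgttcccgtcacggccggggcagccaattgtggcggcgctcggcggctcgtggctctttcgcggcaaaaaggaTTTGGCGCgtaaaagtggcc
The match begins 35, 39 and 20 bases before the start of CDT1, TYMS and E2F1. Of the 32 replication genes with a promoter 9 (28.1%) held a match, against 2.85% of tested genes. Among 29 mitotic genes with a promoter, 16 (55.2%) held the letters TTTGAA of the cell cycle homology region and 24 (82.8%) held CCAAT, against 8.83% and 34.6% of tested genes.

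RRM2, the inducible subunit of ribonucleotide reductase, stood at 20.5, 19.7 and 19.2 CPM with lapatinib and at 4.98, 5.93 and 4.86 with the combination (-1.91 ± 0.10 SE, adjusted p = 2.6e-12). In DMSO its 3 libraries had 130, 128 and 137 CPM, so that each drug step was larger than the spread within arms. E2F1 went from 31.6, 28.2 and 25.5 CPM to 7.81, 7.31 and 7.97 (-1.88 ± 0.09 SE, adjusted p = 1.6e-12). TYMS, which makes thymidylate, fell by 1.86 on the log2 scale, and CDT1, which loads the replicative helicase, by 1.83. AURKB, the kinase of the chromosomal passenger complex, went from 4.32, 3.08 and 3.21 CPM to 0.658, 1.17 and 0.931 (-1.94 ± 0.28 SE, adjusted p = 5e-06). Its partner BIRC5 fell by 1.52. None of these groups overlapped.

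Exceptions were few. ECT2, which acts in cytokinesis, was the only mitotic gene called higher, from 79.3, 85.2 and 82.4 CPM to 99.3, 98.8 and 105 (0.29 ± 0.05 SE, adjusted p = 3.1e-05). Its groups did not overlap. AURKA, BUB3, CDC25B and CENPE were not called, nor were GINS3, ORC6, POLA1, POLE2 and RFC2 of the replication list.

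Genes of G1 control and of DNA repair were mixed. In the G1 list 12 of 24 genes were called lower and 3 higher, against 28.8% and 27% of all genes. CDK4, a G1 cyclin-dependent kinase, went from 76, 67.6 and 68 CPM to 32.3, 25.3 and 26.8 (-1.32 ± 0.08 SE, adjusted p = 1.7e-11). CDKN1A, the CDK inhibitor p21, went from 25.5, 24.8 and 23 CPM to 38.2, 38.9 and 40.9 (0.69 ± 0.18 SE, adjusted p = 0.0026). The 2 genes moved apart without overlap. Of 36 genes of homologous recombination and the Fanconi pathway 21 were called lower and 4 higher, with a median of -0.46. BRCA1, which guides repair of double-strand breaks, stood at 17, 15.2 and 17.5 CPM with lapatinib and at 4.89, 6.67 and 2.59 with the combination (-1.81 ± 0.17 SE, adjusted p = 1.4e-08). EXO1, a resection nuclease, and FANCI, of the crosslink repair complex, fell by 1.39 and 1.05. FANCL, its ubiquitin ligase, and RAD50, of the break-sensing complex, were called higher at 0.77 and 0.42.

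Histone genes of the replication-dependent class ran against the replication genes. Their transcripts normally end in a stem-loop without a poly(A) tail, and many have near-identical copies, so counts of single genes are uncertain. Of the 52 listed genes 30 could not be matched by symbol to the table and are not analysed here, 8 did not pass the filter on low counts and 14 were tested. Of those 13 were called higher and 0 lower (27% and 28.8% of all genes were), with a median log2 change of 1.21. H4C3 was at -0.25 and was not called (adjusted p = 0.63). The promoter of H2BC21 is shown because CCAAT and TATAAA letters recur in this list. Its window is chr1:149886683-149886932 on the minus strand, and capitals mark CCAAT or TATAAA on either strand.
H2BC21: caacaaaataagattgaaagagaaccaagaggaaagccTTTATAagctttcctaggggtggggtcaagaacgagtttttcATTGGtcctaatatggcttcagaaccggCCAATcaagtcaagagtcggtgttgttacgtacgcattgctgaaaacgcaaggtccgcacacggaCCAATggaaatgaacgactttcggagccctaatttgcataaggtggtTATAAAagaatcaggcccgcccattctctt
Of 13 tested histone genes with a promoter 11 (84.6%) held TATAAA and 11 (84.6%) held CCAAT, against 5.96% and 34.6% of tested genes. H2BC4 stood at 6, 5.37 and 5.15 CPM with lapatinib and at 43.7, 41.8 and 42.1 with the combination (2.95 ± 0.12 SE, adjusted p = 7.2e-14). H2BC21 went from 93.4, 83.1 and 85 CPM to 304, 315 and 308 (1.83 ± 0.05 SE, adjusted p = 5.7e-16). Neither pair of groups overlapped. Histones rose with THZ1 in the absence of lapatinib too, with 11 called higher and 1 lower and a median of 1.91. In that comparison 14.1% of all genes were called higher and 16.3% lower.

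**Figure D2:**
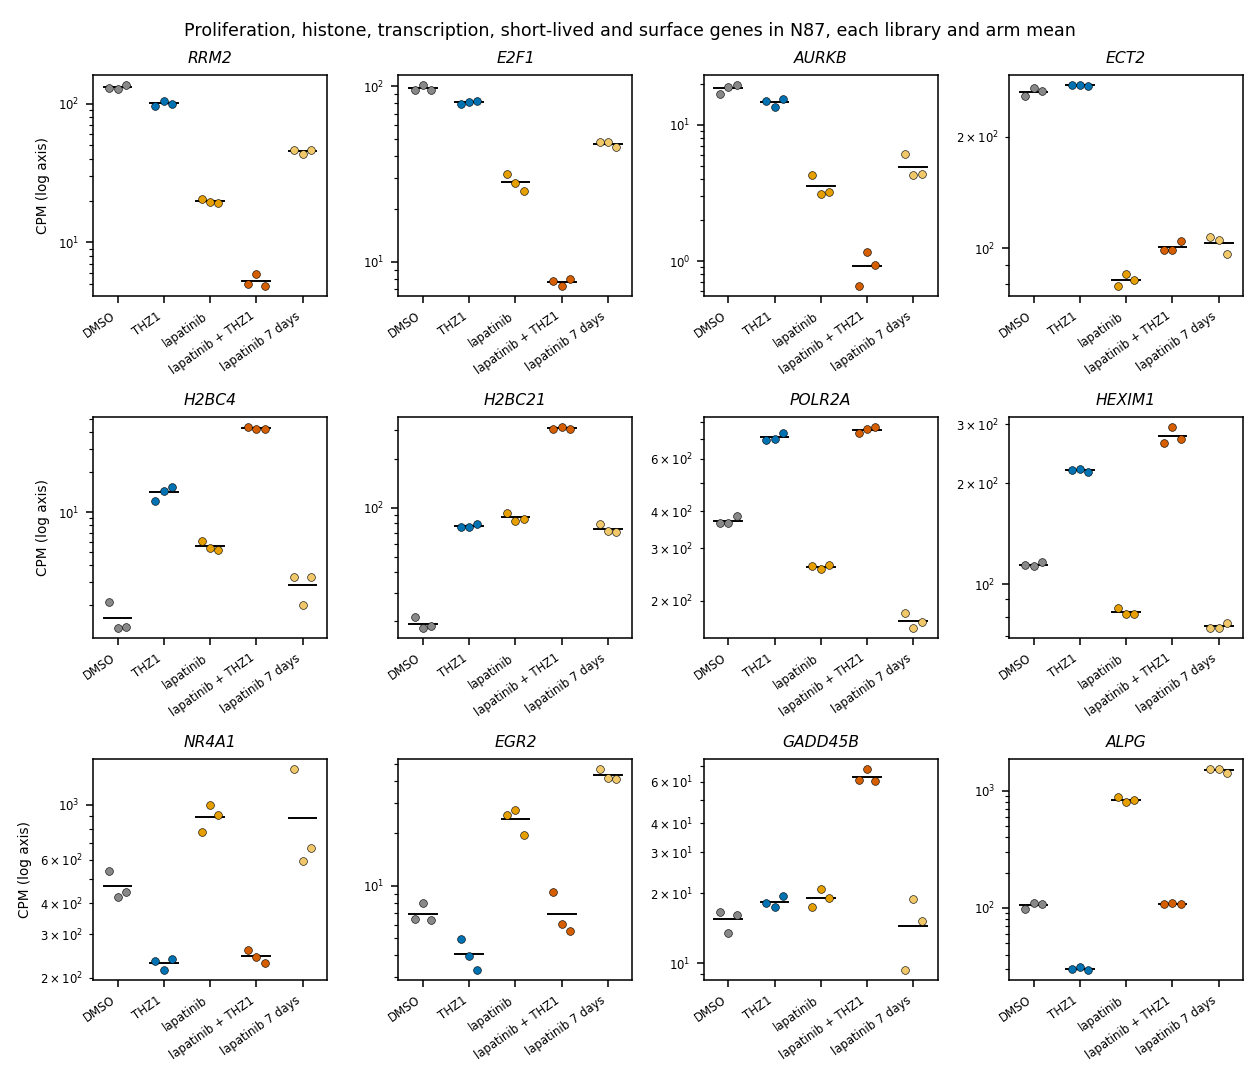
CPM on a log axis for 12 genes of proliferation, histones, transcription, short-lived transcripts and the surface enzyme ALPG in the 5 arms of N87; points are libraries and lines are arm means. RRM2, E2F1 and AURKB step down from DMSO to lapatinib to the combination, H2BC4, H2BC21, POLR2A and HEXIM1 are highest or near their highest with the combination, and NR4A1, EGR2 and ALPG are far lower with the combination than with lapatinib.

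Among 41 genes of RNA polymerase II and the transcription kinases, 17 were called higher and 9 lower (27% and 28.8% of all genes were). The list median log2 change was 0.12. POLR2A, the catalytic subunit of RNA polymerase II, stood at 261, 255 and 264 CPM with lapatinib and at 735, 755 and 770 with the combination (1.53 ± 0.04 SE, adjusted p = 5.7e-16). HEXIM1, which holds the elongation kinase P-TEFb inactive, went from 85, 81.6 and 81.4 CPM to 264, 295 and 271 (1.74 ± 0.04 SE, adjusted p = 1.3e-16). BRD2, a BET bromodomain protein, went from 160, 148 and 147 CPM to 369, 390 and 371 (1.31 ± 0.04 SE, adjusted p = 4.4e-15). All 3 rose without overlap. Among the 9 genes called lower, POLR2G, of the polymerase stalk, fell by 0.93 and NELFE, of the pausing factor, by 0.95.

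The kinases that THZ1 binds changed little. CDK7 was called higher at 0.36 ± 0.08 SE (adjusted p = 0.0007), with 29, 29.6 and 28.7 CPM against 41.2, 34.4 and 36.2. CDK12, which lies in the ERBB2 amplicon, was called higher at 0.41 ± 0.04 SE (adjusted p = 1.1e-08), and CDK13 at 0.24 ± 0.04 SE (adjusted p = 9e-05). CCNK, the cyclin of CDK12 and CDK13, was at 0.08 ± 0.06 SE and was not called (adjusted p = 0.3).

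Immediate-early and other short-lived transcripts fell in most cases. Of 41 tested 24 were called lower and 5 higher (28.8% and 27% of all genes were), with a median log2 change of -0.39. NR4A1, an orphan nuclear receptor, stood at 777, 1003 and 909 CPM with lapatinib and at 259, 243 and 230 with the combination (-1.88 ± 0.21 SE, adjusted p = 2.2e-07). EGR1, a zinc-finger transcription factor, went from 1798, 1647 and 1720 CPM to 742, 663 and 656 (-1.32 ± 0.10 SE, adjusted p = 5.9e-10). JUN, of the AP-1 complex, went from 367, 247 and 266 CPM to 149, 117 and 110 (-1.22 ± 0.15 SE, adjusted p = 7.8e-07). The groups of these 3 genes did not overlap. FOS, its AP-1 partner, went from 895, 658 and 581 CPM to 499, 293 and 295 (-0.97 ± 0.29 SE, adjusted p = 0.0082), and without lapatinib replicate 1 it was no longer called (adjusted p = 0.051). MYC, the growth-promoting transcription factor, fell by 0.67 ± 0.13 SE (adjusted p = 0.00014).

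Not every unstable transcript followed. MCL1, a short-lived survival factor, stood at 429, 460 and 446 CPM with lapatinib and at 428, 464 and 440 with the combination, with overlapping groups and a log2 change of 0.00 ± 0.09 SE (adjusted p = 0.98). GADD45B, a stress-induced gene, went from 17.5, 20.9 and 19.2 CPM to 61.2, 68.3 and 60.4 (1.72 ± 0.12 SE, adjusted p = 5.4e-10). ID2, an inhibitor of helix-loop-helix factors, went from 42.2, 39.2 and 30.9 CPM to 116, 106 and 106 (1.55 ± 0.08 SE, adjusted p = 4.1e-12). Both rose without overlap.

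Cytosolic ribosomal protein genes, which form the 2 subunits of the ribosome, were lower almost throughout. Of 76 tested 69 were called lower and 0 higher (28.8% and 27% of all genes were), with a median log2 change of -0.54. Many have processed pseudogenes, so that the split of reads is uncertain. RPL23 stood at 2937, 2697 and 2489 CPM with lapatinib and at 1368, 1224 and 1237 with the combination (-1.09 ± 0.06 SE, adjusted p = 3e-12). The groups did not overlap. The 7 members not called were RPL21, RPL35, RPL36, RPL39, RPLP1, RPS26 and FAU, with log2 changes between -0.25 and 0.08. Of 17 tested genes that host small nucleolar RNAs or are other nuclear non-coding RNAs, 11 were called lower and 0 higher, with a median of -0.45. SNHG16, one of the hosts, went from 99.8, 98.1 and 94.9 CPM to 38.9, 35.5 and 35.4 (-1.41 ± 0.06 SE, adjusted p = 7.2e-14), again without overlap.

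The drug target itself changed little. ERBB2 stood at 26968, 25118 and 26023 CPM with lapatinib and at 24712, 23130 and 24362 with the combination (-0.11 ± 0.04 SE, adjusted p = 0.024). The groups did not overlap, but the call was lost without lapatinib replicate 1 (adjusted p = 0.080) or without combination replicate 2 (adjusted p = 0.124). EGFR fell by 0.24 ± 0.05 SE (adjusted p = 0.00036), and ERBB3, the partner that signals to PI3K, was at 0.04 ± 0.04 SE (adjusted p = 0.44).

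Neighbours in the ERBB2 amplicon did not move together. GRB7, an adaptor of receptor kinases, went from 3393, 2894 and 3016 CPM to 5096, 5102 and 5007 (0.71 ± 0.05 SE, adjusted p = 5e-10). STARD3, a cholesterol transporter of late endosomes, was called higher at 0.43 ± 0.04 SE (adjusted p = 2.7e-09). PGAP3, a remodelling enzyme of lipid anchors, went from 880, 832 and 843 CPM to 688, 703 and 683 (-0.30 ± 0.04 SE, adjusted p = 1.6e-06), and PPP1R1B, a phosphatase inhibitor, fell by 1.93 ± 0.22 SE (adjusted p = 2.3e-07). In the list of receptors, ligands and amplicon genes 7 of 18 were called higher and 4 lower (27% and 28.8% of all genes were). Without lapatinib replicate 3 there were 4 in each direction.

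Downstream of the receptors, MAPK output genes showed a small net change. Of 23 tested 8 were called lower and 3 higher (28.8% and 27% of all genes were), with a median log2 change of -0.10. DUSP6, the phosphatase that feeds back on ERK, went from 33.9, 38.2 and 26.9 CPM to 19.4, 16.4 and 15.5 (-0.94 ± 0.12 SE, adjusted p = 1.1e-06), without overlap. FOXO target genes, which are active when AKT is not, leaned up: 12 of 19 were called higher and 2 lower, with a median of 0.29. BMF, a pro-apoptotic BH3-only protein, went from 23.7, 16 and 18.4 CPM to 41.5, 35.2 and 41.5 (1.03 ± 0.12 SE, adjusted p = 5e-07), and BCL6, a transcriptional repressor, from 29.6, 29.9 and 25.7 to 48.1, 47.3 and 48.4 (0.76 ± 0.07 SE, adjusted p = 8.5e-09). TRIB3, a pseudokinase that is also induced by ATF4, fell by 1.21 ± 0.15 SE (adjusted p = 1e-06).

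Receptors and adaptors of other growth factor pathways were mixed. Of 21 tested 8 were called lower and 5 higher, against 28.8% and 27% of all genes. FGFR4, a fibroblast growth factor receptor, fell by 1.12 ± 0.12 SE and IRS1, the insulin receptor adaptor, by 0.60 ± 0.05 SE (adjusted p = 1.5e-07 and 3.2e-09). PIK3R3, a regulatory subunit of PI3K, went from 62.6, 60.1 and 61.6 CPM to 127, 128 and 126 (1.05 ± 0.07 SE, adjusted p = 6.9e-11). A list of the BCL2 family also held other apoptosis regulators, BIRC5 and CFLAR among them. Of its 18 tested genes 10 were called lower and 4 higher. BIK, a pro-apoptotic member of the family, was at -1.25 ± 0.11 SE (adjusted p = 6e-09).

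Genes of gastric and intestinal differentiation were mostly lower, and the 10 general epithelial markers had 5 called lower and 2 higher (median -0.12). Across all genes 28.8% were called lower and 27% higher. Of 28 tested of 44 listed differentiation genes 17 were called lower and 2 higher, with a median log2 change of -0.64. MUC13, a membrane mucin, stood at 10.9, 12.8 and 12.8 CPM with lapatinib and at 1.03, 1.91 and 1.66 with the combination (-3.00 ± 0.18 SE, adjusted p = 3.2e-11). CEACAM5, the carcinoembryonic antigen, went from 29.4, 30.4 and 28.3 CPM to 4.51, 3.92 and 4.76 (-2.73 ± 0.11 SE, adjusted p = 1.1e-13), and its relative CEACAM6 from 262, 257 and 275 to 69.9, 60.6 and 62.9 (-2.04 ± 0.05 SE, adjusted p = 1.3e-16). None of these groups overlapped. CDX2, an intestinal transcription factor, fell by 0.50 ± 0.07 SE (adjusted p = 5.4e-06). VSIG1 and MUC20 went up, from 111 and 28555 counts in the lapatinib libraries to 170 and 31988 in the combination libraries.

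Of 18 keratins, which form epithelial filaments, 11 were called lower and 2 higher (28.8% and 27% of all genes were). Their median was -0.45. KRT18 went from 4084, 3821 and 3949 CPM to 2043, 1959 and 1971 (-0.99 ± 0.04 SE, adjusted p = 8.2e-14), whereas KRT15 went from 86.7, 93 and 90.9 to 193, 235 and 211 (1.24 ± 0.07 SE, adjusted p = 2.7e-11). The uroplakin UPK3B stood at 1097, 1024 and 1085 CPM with lapatinib and at 547, 492 and 512 with the combination (-1.05 ± 0.04 SE, adjusted p = 2e-13). ALPG, a membrane alkaline phosphatase with a near-identical paralog, went from 885, 798 and 828 CPM to 108, 110 and 108 (-2.94 ± 0.05 SE, adjusted p = 8.1e-19), where DMSO libraries had 97.2, 111 and 108. Its combination and DMSO libraries thus shared a range, and no other named gene had a smaller adjusted p.

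Mesenchymal and matrix genes leaned up, with 9 of 21 tested members (of 30 listed) called higher and 2 lower and a median of 0.32. ITGA5, the fibronectin receptor subunit, rose by 0.82 ± 0.06 SE (adjusted p = 8e-10). SNAI1, a repressor of E-cadherin, went from 2.21, 2.19 and 2.33 CPM to 5.27, 6.57 and 5.28 (1.34 ± 0.19 SE, adjusted p = 3.9e-06), yet CDH1, E-cadherin, was called higher at 0.16 ± 0.04 SE (adjusted p = 0.00063). Of 21 YAP and TEAD target genes 8 were called lower and 7 higher, against 28.8% and 27% of all genes. The growth factor TGFB2 of that list went from 32.5, 37.8 and 35.8 CPM to 109, 116 and 121 (1.70 ± 0.06 SE, adjusted p = 1e-14), without overlap.

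Metabolic and stress lists differed in direction. Of 28 genes of cholesterol and fatty acid synthesis 20 were called lower and 5 higher, with a median of -0.31. Among all genes 28.8% were called lower and 27% higher. INSIG1, which retains the sterol sensor in the endoplasmic reticulum, fell by 1.21 ± 0.11 SE (adjusted p = 1.3e-08). Of 25 genes of the ATF4 stress response and amino acid supply 17 were called lower and 3 higher, with a median of -0.51. PHGDH, the entry enzyme of serine synthesis, fell by 1.14 ± 0.12 SE (adjusted p = 1.9e-07).

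NRF2 targets, which guard against oxidants, leaned the other way. Of 21 tested 9 were called higher and 2 lower, against 27% and 28.8% of all genes. FTL, the ferritin light chain, went from 299, 280 and 281 CPM to 411, 447 and 420 (0.57 ± 0.05 SE, adjusted p = 4.6e-09). Glycolysis genes had 8 of 23 called in each direction and a median of -0.02, against 27% of all genes called higher and 28.8% lower. The glucose transporter SLC2A3 went from 129, 143 and 137 CPM to 265, 268 and 259 (0.95 ± 0.04 SE, adjusted p = 4.8e-13), while hexokinase HK2 went from 30.7, 30.6 and 33.5 to 16, 15.7 and 15 (-1.02 ± 0.07 SE, adjusted p = 1.8e-10). Both pairs of groups were separate.

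Heat shock proteins had 10 of 20 called higher and 8 lower, and lysosome and autophagy genes 14 of 30 higher and 13 lower. p53 targets had 8 of 21 called in each direction, and SR proteins with splicing kinases 10 of 24 higher and 8 lower. The shares over all genes were 27% higher and 28.8% lower. NF-kB cytokines and feedback genes leaned down, with 8 of 20 tested (34 listed) called lower and 2 higher. CXCL16, a membrane-bound chemokine, went from 73.3, 72.3 and 72.9 CPM to 36.5, 31.5 and 31.5 (-1.13 ± 0.07 SE, adjusted p = 3.8e-11). PTGS2, the inducible cyclooxygenase, fell by 1.44 ± 0.15 SE (adjusted p = 1.1e-07).

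Among the largest rises outside these lists were the non-coding RNAs LINC01089 and PICART1. LINC01089 stood at 9.58, 12.3 and 12.6 CPM with lapatinib and at 52.9, 68.2 and 67.5 with the combination (2.44 ± 0.12 SE, adjusted p = 2.1e-12). PICART1 went from 0.737, 0.796 and 0.875 CPM to 4.14, 8.69 and 7.14 (3.02 ± 0.34 SE, adjusted p = 2.2e-07). TENT5C, a poly(A) polymerase, rose by 2.17 ± 0.17 SE from 1.79, 1.99 and 2.43 CPM (adjusted p = 1.3e-09). Among the largest falls was BPIFB1, a secreted protein of mucosal surfaces, from 13.4, 11.1 and 12.2 CPM to 0.94, 0.847 and 1.66 (-3.41 ± 0.23 SE, adjusted p = 1.7e-10). LAMP3, a lysosomal membrane protein, went from 13.1, 13.2 and 15.8 CPM to 1.32, 1.91 and 2.17 (-2.97 ± 0.20 SE, adjusted p = 2.1e-10). The naming rule required groups without overlap here too.

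**Figure D3:**
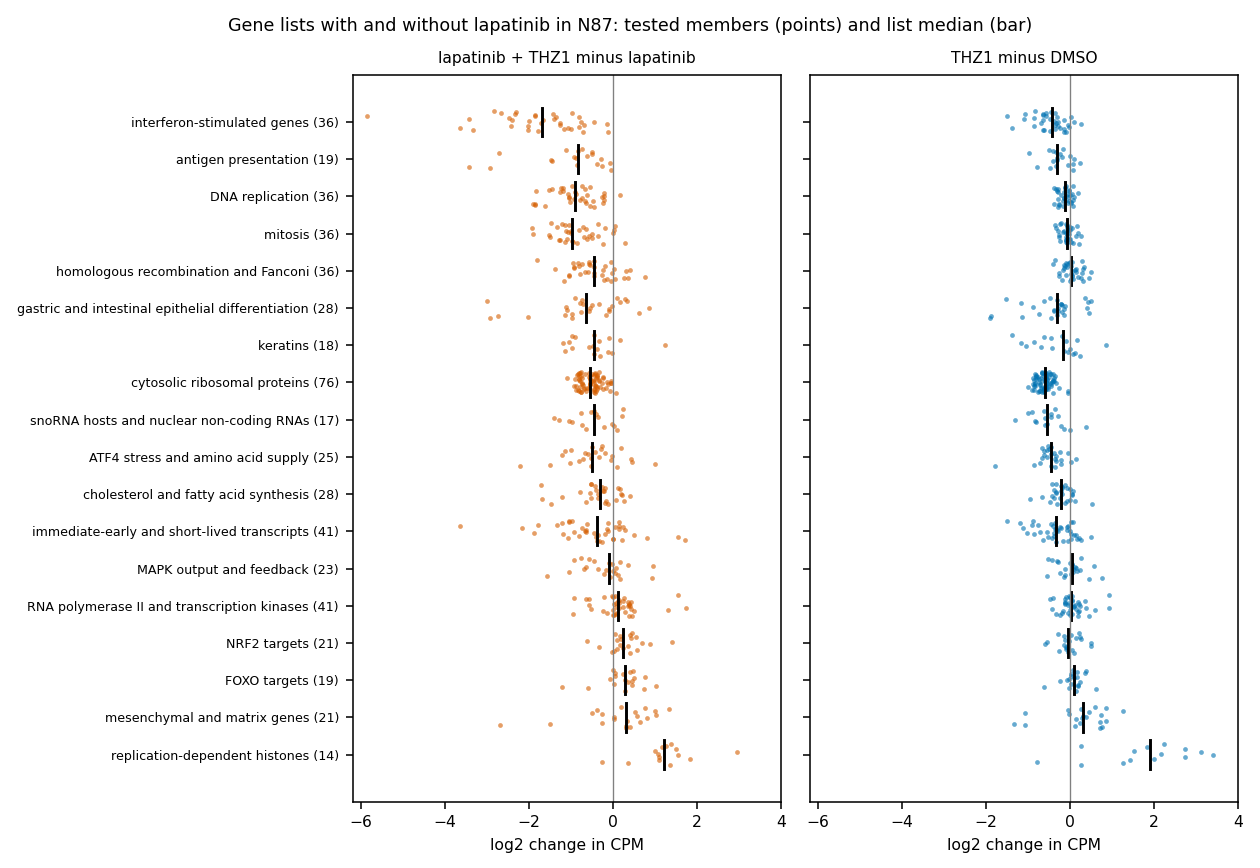
Log2 change in CPM of every tested member (points) and list median (bar) for 18 gene lists, with THZ1 added to lapatinib on the left and THZ1 against DMSO on the right; numbers in brackets are tested members. Interferon, replication and mitotic lists lie well below 0 on the left (medians -1.69, -0.90 and -0.97) and nearer 0 on the right (medians -0.43, -0.11 and -0.07), while ribosomal protein genes have similar medians in both panels (-0.54 and -0.61).

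THZ1 at the same dose and time was also given without lapatinib, and that contrast against DMSO shares no library with the one above. It called 4672 genes (30.4%), 2164 higher (14.1%) and 2508 lower (16.3%), of which 257 and 145 were at least 2-fold changed. Across the 15370 genes, which are not independent, the log2 changes with and without lapatinib had r = 0.51. Of 3623 genes called in both contrasts 3414 had the same direction. The difference between the 2 contrasts was itself tested and called in 4150 genes (27%), with 1764 positive (11.5%) and 2386 negative (15.5%).

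Without lapatinib 26 of the 36 interferon-stimulated genes were called lower and 1 higher, with a median of -0.43, and the difference was called negative in 35 of 36. SAMD9 was the exception (difference -0.03 ± 0.07 SE, adjusted p = 0.81). For MX2 THZ1 moved the level from 26.6, 26.1 and 29.2 CPM in DMSO to 13.1, 12.6 and 12.6, a log2 change of -1.09 against -3.43 with lapatinib (difference -2.33 ± 0.21 SE, adjusted p = 8.4e-08). STAT2 was called higher without lapatinib at 0.27 ± 0.06 SE and lower with it. Antigen presentation genes had 9 called lower and 1 higher without lapatinib, and 16 of 19 had a called negative difference. Over all genes 16.3% were called lower and 14.1% higher without lapatinib, and 15.5% had a called negative difference.

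Proliferation genes changed far less without lapatinib. Replication genes had 13 of 36 called lower and 0 higher (median -0.11), and the difference was negative in 28. Mitotic genes had 8 called lower and 5 higher (median -0.07), and the difference was negative in 29 and positive in 1. Of all genes 16.3% were called lower and 14.1% higher, so the count of mitotic genes called higher lay near that share. The difference was negative in 15.5% of all genes and positive in 11.5%. RRM2 stood at 130, 128 and 137 CPM in DMSO and at 96.5, 105 and 100 with THZ1, a log2 change of -0.39 against -1.91 with lapatinib (difference -1.52 ± 0.11 SE, adjusted p = 6.5e-09). Genes of homologous recombination had 9 called higher and 3 lower without lapatinib. EXO1 was called higher there at 0.30 and lower by 1.39 with lapatinib (difference -1.68 ± 0.18 SE, adjusted p = 1.1e-06).

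Ribosomal protein genes were lower in both settings, with 74 of 76 called lower and a median of -0.61 without lapatinib. Of all genes 16.3% were called lower there and 14.1% higher. The difference for ribosomal protein genes was positive in 12 and negative in 1, against 11.5% and 15.5% of all genes. RPL23 had a difference of -0.19 ± 0.08 SE that was not called (adjusted p = 0.07). The small nucleolar RNA hosts had 13 of 17 called lower without lapatinib, with a median of -0.56. Immediate-early transcripts had 18 of 41 called lower and 1 higher (median -0.33), and the difference was positive in 8 and negative in 6. That negative count lay near the share over all genes. Histones had 7 called negative differences and 0 positive. POLR2A rose in both, from 366, 366 and 385 CPM in DMSO to 696, 703 and 735 with THZ1 (0.93 ± 0.04 SE), and the rise was larger with lapatinib (difference 0.60 ± 0.06 SE, adjusted p = 4.9e-07).

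Opposite calls were found in 209 genes, of which 88 were higher with lapatinib present and lower without it and 121 the reverse. AQP3, a water and glycerol channel, is an example of the former. THZ1 took it from 29.3, 29.9 and 28.3 CPM in DMSO to 14.2, 11.3 and 13.8, but from 28.8, 26.3 and 23.6 with lapatinib to 39, 37.1 and 44. The groups were separate in both contrasts, and the difference was 1.77 ± 0.13 SE (adjusted p = 7.8e-09). GRB7 and SLC2A3 rose only in the presence of lapatinib: without it they were at 0.05 and 0.06 and not called, with differences of 0.66 ± 0.07 SE and 0.89 ± 0.06 SE (adjusted p = 1.3e-06 and 4e-09).

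**Figure D4:**
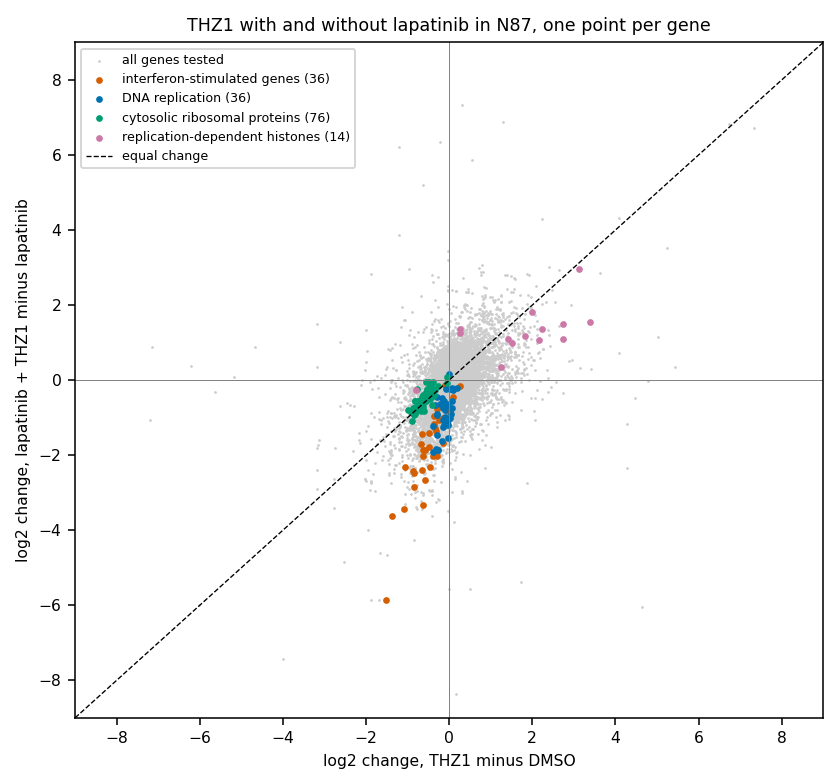
Log2 change of each gene for THZ1 against DMSO (x axis) and THZ1 added to lapatinib (y axis), with all 15370 tested genes in grey and 4 lists in colour; the dashed line marks equal change. Interferon and replication genes lie below the line, whereas ribosomal protein genes lie near it.

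The same addition of THZ1 to a targeted drug was made in 5 other lines, and N87 was set against their mean in a fit of 36 libraries. Targeted drug, THZ1 dose and cell line differ together, so they cannot be told apart. The doses were 50 nM THZ1 in A375 with vemurafenib and in H3122 with crizotinib, 100 nM in PC9 with erlotinib and in RT112 with BGJ398, and 150 nM in A549 with GSK1120212, against 25 nM in N87. When THZ1 was added, 60.9% of genes were called in A375, 31.5% in A549, 28.4% in H3122, 55.2% in PC9 and 54.9% in RT112. The difference between N87 and their mean was called in 7625 of 18755 genes (40.7%), 3619 positive (19.3%) and 4006 negative (21.4%).

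For interferon-stimulated genes the difference was called negative in 31 of 36 and positive in 0 (21.4% and 19.3% of all genes were). Its median was -1.36. List medians were -1.68 in N87, -0.64 in RT112, -0.36 in PC9, and between -0.06 and -0.02 in A375, A549 and H3122. IFI44L, 1 gene of the list, had a line and arm with no count and no usable difference. CMPK2 had a difference of -3.95 ± 0.41 SE (adjusted p = 5e-10), with log2 changes of -3.32 in N87 and 3.55 in PC9. Antigen presentation did not stand apart in the same way, with the lowest list median in A375 at -1.52 and -0.83 in N87.

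Replication and mitotic genes had list medians below 0 in N87 and above 0 in 4 of the other lines. The difference was called negative in 36 of 36 replication genes (median -1.75) and in 36 of 36 mitotic genes (median -1.93). Replication medians were -0.89 in N87 against -0.10 in H3122, 0.45 in A375, 0.58 in A549, 1.15 in RT112 and 2.25 in PC9. Mitotic medians were -0.96 in N87 and -0.78 in H3122 against 0.80, 1.05, 1.18 and 2.90 in A549, RT112, A375 and PC9. RRM2 fell by 1.90 in N87 and changed by 3.12 in PC9 (difference -2.87 ± 0.15 SE, adjusted p = 2.3e-17). Its mean log2 change over the other 5 lines was 0.97.

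FOXO targets had a positive difference in 15 of 20 genes and a negative one in 1 (median 0.79). Their list medians were 0.33 in N87 and 0.21 in H3122, against -0.15 in A549, -0.46 in A375, -0.59 in PC9 and -0.61 in RT112. MAPK output genes had a negative difference in 14 of 24 and a positive one in 0 (median -0.78). The MAPK list median was -0.08 in N87, 0.12 in H3122, 0.21 in A549, 0.72 in RT112, 0.84 in A375 and 1.23 in PC9. Over all genes 19.3% had a positive difference and 21.4% a negative one. Ribosomal protein medians ranged from -0.98 in A375 to -0.14 in A549, with -0.53 in N87 between them. POLR2A rose in every line, by 0.72 in H3122 to 1.75 in A375, with 1.54 in N87. Among the named genes MUC13 had a difference of -4.24 ± 0.38 SE, and FBLN1, an extracellular matrix protein, and TBX2, a T-box repressor, had positive ones of 2.30 ± 0.16 SE and 2.45 ± 0.25 SE (adjusted p = 1.3e-11, 2.7e-14 and 4.2e-10).

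**Figure D5:**
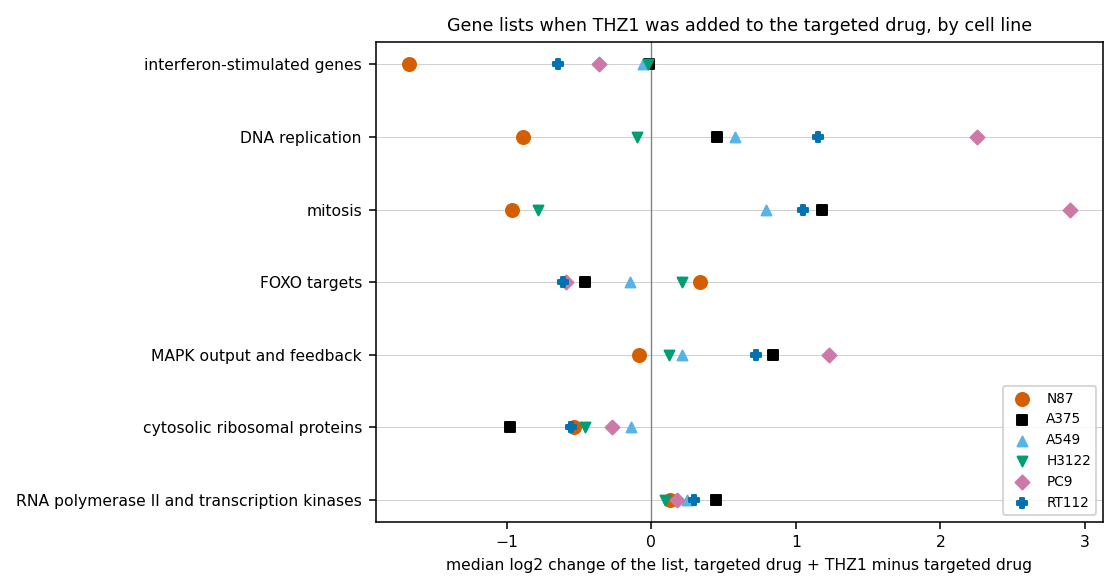
Median log2 change of 7 gene lists when THZ1 was added to the targeted drug, with a symbol for each of the 6 cell lines. N87 has the lowest median for interferon-stimulated, replication and mitotic genes (-1.68, -0.89 and -0.96) and the highest for FOXO targets (0.33), and lies inside the range of the other lines for ribosomal protein genes.

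Genes that separate 7 days of lapatinib from DMSO were then read in the 48 h contrast, with which that comparison shares no library. At 7 days 70.9% of genes were called, 33.5% higher and 37.5% lower. Of the 2053 genes called and at least 2-fold higher at 7 days 643 (31.3%) were called lower when THZ1 was added and 411 (20%) higher, with a median of -0.13. The shares over all genes were 28.8% and 27%, so the share of falls in the raised set lay near that of all genes. Of the 1369 genes at least 2-fold lower at 7 days 618 (45.1%) were called lower and 182 (13.3%) higher, with a median of -0.29. THZ1 against DMSO, which shares the DMSO libraries with the selection, had medians of 0.17 and -0.11 for the 2 sets.

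The change also varied with gene length, which was known for 96.3% of tested genes. Genes were put into 5 classes of nearly equal number by genomic span. In the class of shortest span, up to 8.319 kb, 38.3% were called lower and 15.3% higher, with a median log2 change of -0.17. In the class of longest span, from 89.137 kb up, 20.1% were called lower and 35% higher, with a median of 0.09. The classes between had medians of -0.09, 0.01 and 0.07 in order of length. Without lapatinib the medians ran from -0.05 to 0.05 over the same classes.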

How the data were processed

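RNA was read from N87 cells in 5 arms of 3 libraries, and groups came from the sample titles. The authors deposited expected counts, made with RSEM 1.2.12, Bowtie2 2.2.1 and hg19, per the submitters' processing notes. Expected counts that several genes share are split in proportion by this method. The gene annotation and strand setting are not given in the sources used here, so antisense genes cannot be told from their partners. Per the labels' protocols an RNeasy micro kit gave the RNA and a NEBNext Ultra RNA kit the libraries.

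The expected counts were rounded and all 15 N87 libraries entered 1 quasi-likelihood model in edgeR 4.0.16 under R 4.3.3, after filterByExpr and TMM scaling. The threshold was an adjusted p (Benjamini-Hochberg, over all 15370 genes) below 0.05. The 6 lines were fitted likewise on 36 libraries. IDs without a symbol (6536 of 53893) hold 1.16% of counts. A separate set of gene names gave symbols, with GENCODE v29 names where it had none. GENCODE v29 also gave gene spans, and 36 of 946 listed genes had no match. Promoters are from a RefSeq table of GRCh38.p14. Where a gene had several starts, only that of lowest coordinate was kept, so other starts were not searched.

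Named genes are the 12 largest rises and 12 largest falls called without overlap and at 5 CPM or more in the higher arm, up to 4 called members per list in its main direction and 2 in the other, a fixed set (ERBB2, EGFR, ERBB3, CDK7, CDK12, CDK13, CCNK, POLR2A, HEXIM1, JUN, FOS, EGR1, MYC, MCL1 and CDKN1A), and the 6 largest differences in each direction. A subset of them is printed, and some results are not reported here. Members and lists were chosen with earlier results of these data known. No set test was run. The fit was tested on simulated data. Alternatives were other scalings and filters, DESeq2 1.42.0, a replicate block, fewer arms, fewer lines and each library left out.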

Additional observations from a re-analysis of the deposited data

Results flagged for a closer look

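The effect of THZ1 differed with and without lapatinib in 4150 genes by a test of the difference itself, and the change in N87 differed from the mean of the other 5 lines in 7625.

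Among the single genes named by rule, the effect with lapatinib minus that without it was 2.48 on the log2 scale for KCNT1, a sodium-activated potassium channel. It was 1.96 for CD22, a sialic acid-binding lectin, 1.89 for SPNS3, 1.77 for AQP3, 1.76 for VIPR2, a receptor of vasoactive intestinal peptide, and 1.73 for CYP4B1, a cytochrome P450. KCNT1 stood at 4.84, 5.07 and 3.6 CPM with lapatinib and at 17, 21.8 and 20.7 with the combination, while THZ1 without lapatinib gave a log2 change of -0.34 (adjusted p = 0.5, edgeR). The lapatinib and combination groups did not overlap.

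Among negative differences were IFI44L at -4.35, COLCA1 at -3.34, EGR3, an immediate-early transcription factor, at -3.21, EPSTI1, an interferon-induced gene, at -2.95, and UBA7, the activating enzyme for ISG15, at -2.78. COLCA1 had 7 counts in all DMSO libraries and 9 in the THZ1 libraries. Its call was lost without THZ1 replicate 2 (adjusted p = 0.053) or THZ1 replicate 4 (adjusted p = 0.140). EGR3 lost its call in 11 of the 12 settings that left out a library, all except lapatinib replicate 1, with adjusted p from 0.0501 to 0.154.

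Against the other 5 lines the difference was 2.62 for NPIPA2, which has near-identical copies, 2.45 for TBX2, 2.30 for FBLN1 and 2.23 for PITX1-AS1. It was -4.24 for MUC13, -4.07 for CPT1C, a neuronal member of the carnitine palmitoyltransferase family, -3.95 for CMPK2 and -3.59 for ALPG. CPT1C stood at 3.9, 5.37 and 4.28 CPM with lapatinib and at 0.47, 0.424 and 0.621 with the combination in N87, without overlap, and its log2 change was 3.79 in PC9. ALPG fell by 2.94 in N87 and had a log2 change of 3.05 in A375, with a mean of 0.65 over the other 5 lines.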

How the results depend on the processing

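The number of genes called for THZ1 added to lapatinib ran from 7420 with DESeq2 to 8569 with the combination and lapatinib arms alone, and from 7773 to 7992 when a library was left out. THZ1 without lapatinib gave 3519 with DESeq2 and 3604 to 4037 without a library. The difference of both gave 3204 with DESeq2 and 3480 to 3809 without a library, and N87 against the other lines 7051 to 7970 over all settings. Each of these counts stayed within 1.5 times the reported one. Libraries share only a number: deviations of same-numbered lapatinib and combination libraries correlated at 0.063, -0.019 and 0.008, and 1 of 3 correlated best with its own number. With the replicate block 8459, 4117 and 3846 genes were called in the first 3 comparisons. The gene length difference, the median log2 change of the class of longest genes minus that of the shortest, was 0.263 and ran from 0.208 (without lapatinib replicate 1) to 0.268 when a library was left out. No log2 change of a gene named by rule reversed where the gene was called in the main or the alternative fit. Over 38 gene lists 405 of 418 alternative counts in the main direction stayed within 1.5 times the reported one (DESeq2 was not run for them). Of the other 13, 9 were the mitochondrial transcripts, with 0 to 8 called higher against 1 of 15, 3 were melanocyte and blood cell markers of at most 2 calls, and 1 was the ERBB list. For 222 genes named by rule in the main comparison 59 of 2439 alternative values lost the call. Among printed genes of that set only ERBB2 and FOS did so. Genes picked after their values were seen (STAT2, IRF9, IFIT3, SAMD9, HLA-B and B2M) are outside that set, and their single calls were not varied. In the fit of all lines 35 of 36 interferon-stimulated genes were called lower in N87 and 0 higher. Other scalings moved the median of all genes by at most 0.002. Each of these scalings places the bulk of genes near no change by design, so a shift shared by all genes would not show. Genes of few counts, such as IFI44L with 13 counts in the combination arm, have a precision limited by depth, and no interval covers variation between cultures.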
